A study of Homo sapiens with 8 samples.

Results

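Poly(A)-binding proteins, their PABP-interacting partners (PAIPs) and the La-related proteins (LARPs) that act at the mRNA tail were examined in HEK293T cells with and without the cytoplasmic exoribonuclease XRN1. The set was given by name and holds PABPC1, PABPC4, PABPN1, PAIP1, PAIP2, PAIP2B, LARP1, LARP4 and LARP4B. All 9 had a row in the count table of 10105 genes. The set was chosen by a measured value, the raised footprint-to-mRNA ratio of PABPC1 in XRN1-null cells, so the genotype differences of PABPC1 are given as a description with no test, and calls are counted over the other 8 genes.

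HEK293T is a human embryonic kidney line that carries the SV40 large T antigen. WT cells were compared with an XRN1-null line made from them by CRISPR/Cas9 editing of an XRN1 exon, and the labels give no other treatment for either group. From cells plated on 15 cm dishes for 24 h before harvest, mRNA (RNA-Seq) and ribosome-protected fragments (RPF, by Ribo-Seq) were each sequenced in 2 biological replicates per genotype, 8 libraries in all. The paper describes its RNA-Seq as missing fragments that lack a poly(A) tail. Both replicates of the null group come from the edited line, so effects of XRN1 loss and other features of this line cannot be told apart.

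The poly(A) tail is coated in the nucleus by PABPN1, which stimulates poly(A) polymerase, and in the cytoplasm by PABPC1 and its close paralog PABPC4, which bind the initiation factor eIF4G and so connect the tail to the cap. PAIP1 is a translational co-activator with an eIF4G-like domain, whereas PAIP2 and PAIP2B displace PABP from the tail and inhibit translation. LARP1 binds mRNAs with a 5′ terminal oligopyrimidine tract (TOP mRNAs) downstream of the kinase mTORC1, and LARP4 and LARP4B bind A-rich RNA and PABP and stabilise mRNA. XRN1 degrades decapped mRNA from its 5′ end, usually after deadenylation.

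Many PABP partners share a short peptide motif, PAM2, that docks on the C-terminal MLLE domain of cytoplasmic PABP. The coding stretches of this motif are shown because the PAIPs and the LARP4 pair all have it, whereas the PABPs and LARP1 did not match the search. They were read from the GRCh37 genome (the build that hg19 also names) in the sense direction, and capitals mark the codons for the leucine, the alanine and the aromatic residue (phenylalanine or tryptophan) that define the search.
PAIP1: CTGtctgtgaatGCCcctgaaTTTtaccct
PAIP2: CTGaatccaaatGCAaaggagTTTgttcct
PAIP2B: CTGaacccagatGCCaaggagTTTattcca
LARP4: TTAaatcctaatGCCaaagtaTGGcaagaa
LARP4B: CTGaaccctaatGCAgaagtgTGGggggct
The stretch of PAIP1 lies at chr5:43555956-43555985 on the minus strand and covers residues 128 to 137 of 479. In PAIP2 it lies at chr5:138704434-138704463 on the plus strand and covers residues 111 to 120 of 127, close to the C-terminus. PAIP2B has it at the corresponding place, chr2:71415624-71415653 on the minus strand, residues 110 to 119 of 123. In the LARP4 pair the motif is near the N-terminus and has tryptophan in place of phenylalanine. It lies at chr12:50821569-50821598 on the plus strand in LARP4 (residues 15 to 24 of 724) and at chr10:910157-910186 on the minus strand in LARP4B (residues 56 to 65 of 738). Each stretch lies within 1 coding exon. The search of translated reference coding sequences asked for leucine followed by asparagine, serine or glycine, for alanine at the fifth residue and phenylalanine or tryptophan at the eighth, and for proline at either the third or the last residue. The pattern was found in 5 of the 9 genes and in 98 of 18922 reference coding sequences (0.518%), and a match is a description of letters, not evidence of binding. Of 12 genes listed as PAM2 partners of cytoplasmic PABP it was found in only 6 (50%). A gene that did not match, such as LARP1, may therefore still carry a form of the motif.

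The label of the null line was checked with XRN1 itself. Its footprints stood at 34.4 and 49.8 CPM (counts scaled to a common library total, after TMM scaling) in WT cells and at 22.6 and 18.4 in XRN1-null cells, whereas its mRNA stood at 33.5 and 33.01 against 282 and 253. The log2 difference was 3.01 for mRNA, −1.08 for RPF (edgeR FDR 0.00641, not below 0.005) and −4.09 for TE (FDR 1.66e-06). Counts over the whole gene include reads of an edited transcript, so the mRNA level does not check the loss of the protein. Of 7 genes listed as HEK293T markers 5 were in the table, PAX2 and LHX1 having no row, and of 7 markers of blood, liver, endothelium and fibroblasts only COL1A1 had one, at a mean of 14.6 CPM of mRNA in WT and 37.1 in XRN1-null cells. Its part in the results was not tested. Totals were 33757487 to 38145433 counts in RNA-Seq and 1921641 to 4399542 in Ribo-Seq, where WT replicate 1 was the shallowest library.

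Reads of several of these genes cannot be placed with equal certainty. Of the 29-nt windows along the PABPC1 coding sequence, 968 of 1880 (51.5%) occur elsewhere in the genome, in copies that include PABPC3 and processed pseudogenes. The share was higher for PAIP1, at 994 of 1409 windows (70.5%). It was 24.9% for PABPN1, 20% for LARP4 and 8.3% for PABPC4. PAIP2, PAIP2B, LARP1 and LARP4B had no such window. These windows have the length of a footprint, so the shares describe RPF reads. The read length of RNA-Seq is not given in the sources used here, so placement may differ between the assays, which bears on TE. How reads with several positions were counted is not given in the sources used here, so values of PABPC1 and PAIP1 are uncertain. Those of PABPN1 are too, since it overlaps the readthrough gene BCL2L2-PABPN1, with which its reference transcript shares 1447 of 1811 exonic nt (79.9%).

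In WT cells the set covered a wide range of mRNA levels, compared here as CPM per kb of the deposited gene width. PABPC1 was by far the most abundant, at 460 ± 15.8 CPM per kb (SD, n = 2), the 134th highest of 10105 genes. PABPC4 followed at 75.4 ± 8.25, PAIP2 at 69.1 ± 1.67, PABPN1 at 63.3 ± 3.30 and LARP1 at 54.1 ± 3.16. PAIP1 stood at 39.0 ± 0.511, and LARP4B and LARP4 were close to the median gene (15.0) at 16.02 ± 1.05 and 15.7 ± 0.552. PAIP2B was the lowest at 4.47 ± 0.0705. Among neighbours in this order, the replicate ranges overlapped for PABPC4 and PAIP2 and for LARP4B and LARP4, and for no other pair.

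The order of footprint levels depended on the length used, and whether the Ribo-Seq counts cover the coding sequence only is not given in the sources used here. Per kb of deposited width PABPC1 was highest at 114 ± 39.3 CPM per kb, ahead of PAIP2 at 58.5 ± 3.43. Per kb of coding sequence PAIP2, with the next-to-shortest coding sequence of the set, was highest at 255 ± 15.0 CPM per coding kb, ahead of PABPC1 at 170 ± 58.9 and PABPN1 at 116 ± 11.3. PABPC4 stood at 73.4 ± 13.0 and PAIP2B at 65.5 ± 7.21. The lowest were LARP4B at 32.1 ± 1.52 and LARP1 at 27.8 ± 3.26. Footprints of PABPC1 varied most in absolute terms between the WT replicates, 129 and 212.

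PABPC1, the main cytoplasmic poly(A)-binding protein and itself the product of a TOP mRNA, had 1348 and 1284 CPM of mRNA in the WT replicates and 757 and 746 CPM in the XRN1-null replicates. Its footprints stood at 246 and 405 CPM in WT and at 474 and 524 CPM in XRN1-null cells. In both assays the groups did not overlap, with mRNA lower and footprints higher without XRN1. The log2 difference of XRN1-null against WT was −0.81 (SE 0.0598) for mRNA, 0.61 (SE 0.195) for RPF and 1.41 (SE 0.236) for TE, the translation efficiency, which is the RPF change relative to the mRNA change. These libraries are bulk and scaled to a common total, so fewer cells with an mRNA and less of it per cell cannot be told apart, here or for the genes below. The RPF value depended on which WT library was used. It was 0.31 without WT Ribo-Seq replicate 1 and 1.03 without WT Ribo-Seq replicate 2, and the TE difference was 1.11 and 1.84. The ratio of the WT replicates, 1.65, was reached by 54 of the 3945 genes (1.37%) with at least 100 RPF counts in both.

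**Figure D1:**
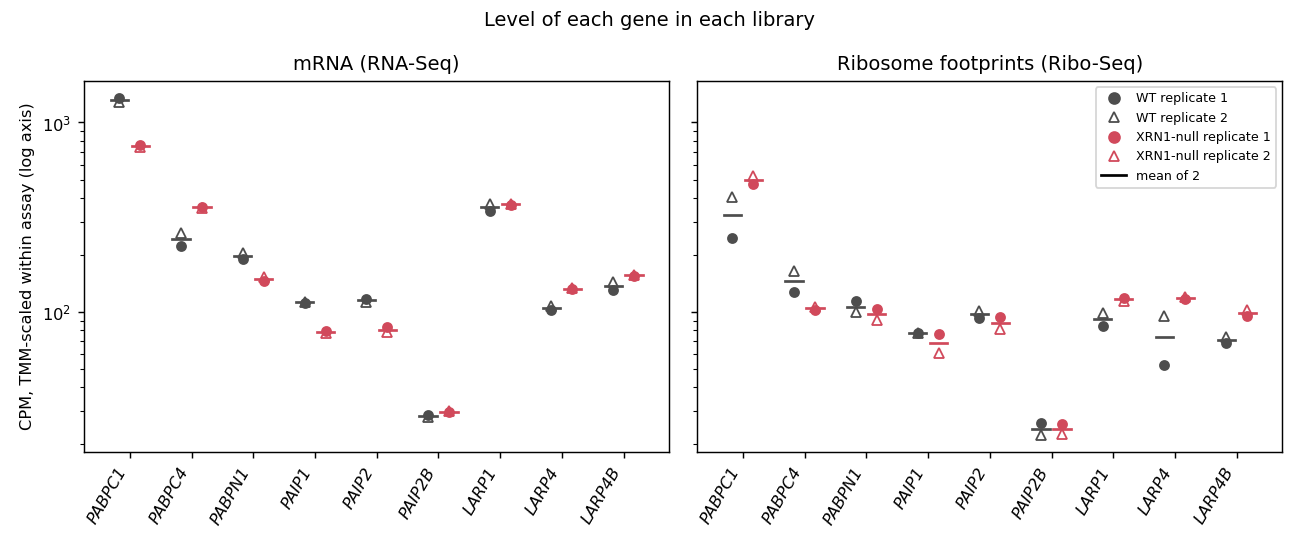
Level of each gene in every library, as CPM on a log axis, with mRNA and RPF shown separately, 1 point per replicate, a line at the mean of 2, and colours for WT and XRN1-null cells. PABPC1 mRNA lay at 1348 and 1284 CPM in WT and 757 and 746 CPM in XRN1-null cells, while PABPC4 mRNA lay at 223 and 260 against 357 and 356 CPM.

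PABPC4, the paralog first described as the inducible PABP of activated T cells, went the other way in both assays. Its mRNA stood at 223 and 260 CPM in WT and at 357 and 356 CPM in XRN1-null cells, and its footprints at 127 and 164 CPM against 103 and 106 CPM. Without XRN1 the mRNA libraries were all higher and the footprint libraries all lower, with no overlap of the groups. PABPC4 mRNA rose 1.48-fold (log2 difference 0.56, SE 0.0833, edgeR quasi-likelihood FDR 0.000734). The RPF difference of −0.49 (SE 0.154, 95% interval −0.83 to −0.16) did not pass the threshold of 0.005 (FDR 0.0502). The RPF difference was −0.64 without WT Ribo-Seq replicate 1 and −0.27 without WT Ribo-Seq replicate 2. Each of these fits has 1 WT library, and its spread is taken from the other libraries. The same holds for each fit below in which a group keeps 1 library, so a call gained there adds no support. The TE of PABPC4 fell to 0.481 of the WT value (log2 difference −1.06, SE 0.177, interval −1.44 to −0.67, FDR 0.004), which placed it 277th from the lowest of 10105 genes. The paper proposes that untranslated 3′ fragments of some mRNAs build up in XRN1-null cells. Counts over the whole gene do not separate intact mRNA from such fragments, and this was not tested for PABPC4 or the other genes.

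The TE call of PABPC4 lay close to the threshold. Leaving out each of the 8 libraries in turn gave differences of −1.20 to −0.83, and 6 of the 8 fits lost the call. Without WT RNA-Seq replicate 1 the difference was −0.97 (FDR 0.0119), without XRN1-null RNA-Seq replicate 1 −1.05 (FDR 0.0219) and without replicate 2 −1.05 (FDR 0.0195). Without WT Ribo-Seq replicate 2 it was −0.83 (FDR 0.0101), without XRN1-null Ribo-Seq replicate 1 −1.03 (FDR 0.0546) and without replicate 2 −1.08 (FDR 0.0365). The sign was negative in all of these fits, and with all libraries the call also passed in DESeq2 (FDR 1.23e-05).

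PABPC1 and PABPC4 share 74.6% of their residues (502 of 673 aligned positions) and 69.8% of their coding bases. Per kb, PABPC4 mRNA was 0.148 and 0.181 of PABPC1 mRNA in the WT replicates and 0.421 and 0.425 in the XRN1-null replicates. For footprints the ratio was 0.461 and 0.361 in WT against 0.193 and 0.181 without XRN1. The balance of the paralogs thus shifted towards PABPC4 in mRNA and towards PABPC1 in footprints, a description that includes the values for which PABPC1 was chosen.

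PABPN1, the nuclear poly(A)-binding protein, had 189 and 204 CPM of mRNA in WT and 145 and 152 CPM in XRN1-null cells. Its footprints were 114 and 99.5 CPM in WT and 103 and 90.8 CPM in XRN1-null cells, with overlapping groups. PABPN1 mRNA fell by 0.40 on the log2 scale (SE 0.0679, edgeR FDR 0.00142), and neither RPF (−0.13, interval −0.44 to 0.19) nor TE (0.28, interval −0.05 to 0.61) passed. The readthrough gene BCL2L2-PABPN1 carried a count of 86.0% to 87.2% of that of PABPN1 in RNA-Seq and fell by 0.41 (FDR 0.00124). The values of the pair therefore cannot be read as separate genes.

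**Figure D2:**
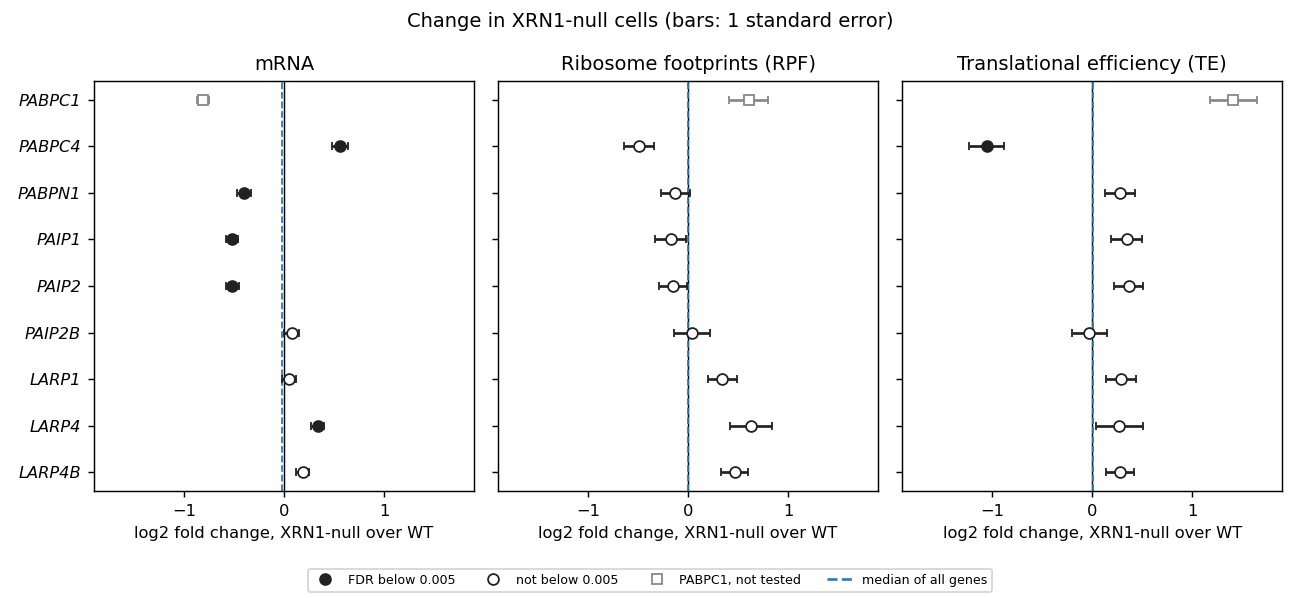
Log2 difference of XRN1-null against WT for the mRNA, RPF and TE of each gene, with bars of 1 SE, filled circles where the edgeR FDR was below 0.005, a grey square for PABPC1, which was not tested, and dashed lines at the median of all genes. PABPC4 lies at 0.56 for mRNA and at −1.06 for TE, while PABPC1 lies at −0.81 and 1.41.

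PAIP1 and PAIP2, a co-activator and an inhibitor of PABP, both had less mRNA without XRN1. PAIP1 mRNA was 111 and 113 CPM in WT and 79.7 and 77.1 CPM in XRN1-null cells, and PAIP2 mRNA was 117 and 113 CPM against 82.8 and 78.0 CPM. The groups did not overlap for either gene. PAIP1 mRNA fell by 0.52 on the log2 scale (SE 0.0621, edgeR FDR 0.000265) and PAIP2 mRNA also by 0.52 (SE 0.0657, FDR 0.000343).

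No footprint difference of PAIP1 or PAIP2 passed. Footprints of PAIP1 stood at 77.6 CPM in both WT replicates and at 76.5 and 60.6 CPM in XRN1-null cells, and those of PAIP2 at 93.2 and 101 CPM against 94.4 and 81.2 CPM. The RPF intervals were −0.51 to 0.16 for PAIP1 and −0.46 to 0.16 for PAIP2. The TE differences were 0.34 (interval 0.01 to 0.68, edgeR FDR 0.2) and 0.36 (interval 0.05 to 0.67, FDR 0.149), so neither passed. With single libraries left out they ranged from 0.16 to 0.49 for PAIP1 and from 0.25 to 0.46 for PAIP2. Both WT footprint libraries of PAIP1 were above the XRN1-null ones, and for PAIP2 the groups overlapped.

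PAIP2B, the paralog of PAIP2 with 58.6% of residues in common (75 of 128 aligned positions), had values close together in every library. Its mRNA was 28.5 and 27.9 CPM in WT and 29.5 and 29.95 CPM in XRN1-null cells, and its footprints were 26.0 and 22.3 CPM against 25.6 and 22.8 CPM. No difference passed, and the intervals were −0.09 to 0.24 for mRNA, −0.36 to 0.43 for RPF and −0.41 to 0.35 for TE. With 50 to 103 RPF counts per library PAIP2B was the least deeply counted gene of the set, and its RPF and TE differences changed sign when single Ribo-Seq libraries were left out. Per kb, PAIP2B mRNA was 0.0643 and 0.0651 of PAIP2 mRNA in WT against 0.0940 and 0.101 without XRN1.

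LARP1, which represses TOP mRNAs, had 342 and 371 CPM of mRNA in WT and 367 and 372 CPM in XRN1-null cells, with overlapping groups. Its footprints were 83.9 and 99.0 CPM in WT and 119 and 115 CPM in XRN1-null cells, without overlap. None of its differences passed. They were 0.05 for mRNA (interval −0.10 to 0.21), 0.34 for RPF (interval 0.03 to 0.65, edgeR FDR 0.12) and 0.29 for TE (interval −0.04 to 0.62). The RPF difference was 0.25 without WT Ribo-Seq replicate 1 and 0.49 without WT Ribo-Seq replicate 2.

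LARP4 and LARP4B, a pair with 36.2% of residues in common (287 of 793 aligned positions), had higher values without XRN1 in both assays. LARP4 mRNA was 103 and 108 CPM in WT and 132 and 133 CPM in XRN1-null cells, and its footprints were 52.6 and 94.6 CPM against 117 and 120 CPM. LARP4 mRNA rose by 0.34 on the log2 scale (SE 0.063, edgeR FDR 0.00225). Its RPF difference of 0.63 (SE 0.207, interval 0.18 to 1.08) did not pass (FDR 0.0589), and the WT replicates were far apart. WT replicate 2 was 1.80 times replicate 1, a ratio that 24 of the 3945 genes (0.608%) reached. When single libraries were left out the difference ranged from 0.33 to 1.18, and without WT Ribo-Seq replicate 2 it passed at 1.18 (FDR 3.7e-11).

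LARP4B mRNA was 131 and 143 CPM in WT and 154 and 157 CPM in XRN1-null cells, and its footprints were 68.8 and 73.5 CPM against 95.4 and 102 CPM. The groups did not overlap in either assay and the replicates were closer than those of LARP4. Neither the mRNA difference of 0.19 (interval 0.02 to 0.35, edgeR FDR 0.0449) nor the RPF difference of 0.46 (SE 0.139, interval 0.16 to 0.77, FDR 0.0425) passed 0.005. With single libraries left out the mRNA difference ranged from 0.14 to 0.25 and the RPF difference from 0.42 to 0.53. No TE difference passed for LARP4 (0.27, interval −0.24 to 0.78) or LARP4B (0.28, interval −0.03 to 0.59). The TE difference of LARP4 was −0.01 without WT Ribo-Seq replicate 1 and 0.84 (FDR 0.00812) without WT Ribo-Seq replicate 2.

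Over the 8 genes other than PABPC1, mRNA rose for 2 (PABPC4 and LARP4), fell for 3 (PABPN1, PAIP1 and PAIP2) and did not pass for 3. Over all 10105 genes 22.9% rose and 23.2% fell, 46.1% in either direction, so mRNA calls were common throughout the table. The median mRNA difference of the 8 genes was 0.06, against −0.01 for all genes. Without XRN1-null RNA-Seq replicate 2 none of the 5 passed (PABPC4 0.56, FDR 0.00516, PABPN1 −0.43, FDR 0.0163, PAIP1 −0.49, FDR 0.00638, PAIP2 −0.47, FDR 0.00807, LARP4 0.33, FDR 0.0408). Without XRN1-null RNA-Seq replicate 1 PABPC4 (0.56, FDR 0.00557), PABPN1 (−0.37, FDR 0.0358) and LARP4 (0.34, FDR 0.0376) did not pass.

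No footprint difference passed among the 8 genes with edgeR, against 0.633% of all genes higher and 1.14% lower (1.77% in either direction), and none passed with DESeq2. At an unadjusted p below 0.05 there were 4, of which LARP1, LARP4 and LARP4B were higher and PABPC4 lower, against 16.2% of all genes higher and 16.8% lower at that p. For TE 1 gene fell (PABPC4), against 1.78% of all genes, and none rose, against 0.0495% (1.83% in either direction). There were 3 unadjusted p-values below 0.05, those of PAIP1 and PAIP2 with higher TE and of PABPC4 with lower TE (8.76% and 14.6% of all genes), and DESeq2 called PABPC4 alone. The median TE difference of the 8 genes was 0.28 and that of all genes 0.01, with 6 of 8 differences above 0.

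Separation of the libraries was counted as well. Over the 8 genes other than PABPC1 the mRNA groups were wholly higher in XRN1-null cells for 4, wholly lower for 3 and overlapping for 1, where 41% of all genes were wholly higher and 43.7% wholly lower. For footprints 3 genes were wholly higher (LARP1, LARP4 and LARP4B) and 2 wholly lower (PABPC4 and PAIP1), against 32.1% and 32.3% of all genes. The overlapping genes were LARP1 for mRNA and PABPN1, PAIP2 and PAIP2B for footprints.

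**Figure D3:**
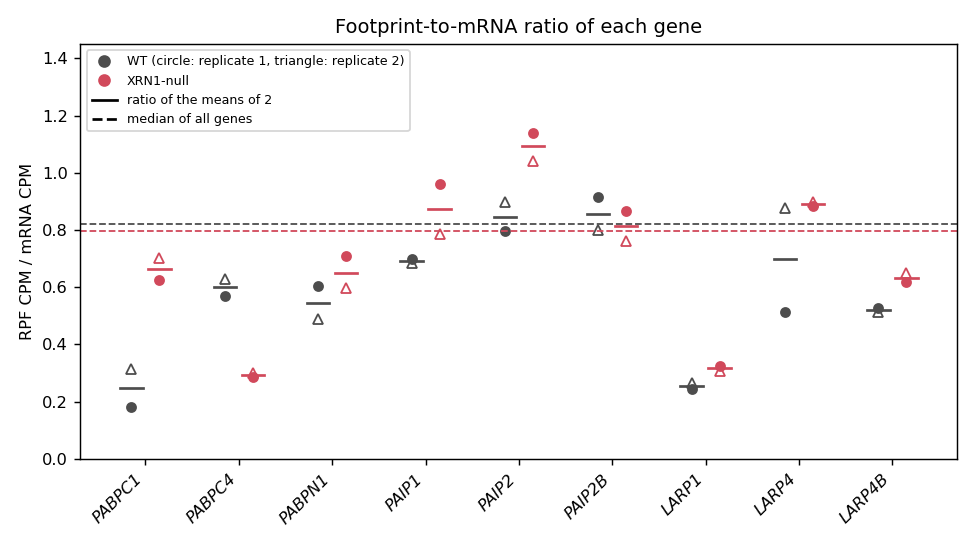
Translation efficiency of each gene as the ratio of RPF CPM to mRNA CPM on a linear axis from 0, with 1 point per replicate number, a short line for the ratio of the group means, and dashed lines for the median of all genes in WT (0.820) and XRN1-null cells (0.798). PABPC1 and LARP1 were lowest in WT cells at 0.247 and 0.256, and PABPC4 was lowest in XRN1-null cells at 0.293.

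In WT cells PABPC1 and LARP1 had the lowest ratios of RPF CPM to mRNA CPM in the set, 0.247 and 0.256, at percentiles 4.13 and 4.59 of all genes. The ratio of PABPC4 was 0.602 and that of PAIP2B, the highest, 0.858, close to the median gene at 0.820. In XRN1-null cells the ratio of PABPC1 was 0.664 (percentile 39.8), that of LARP1 0.316 (percentile 10.7) and that of PABPC4 0.293 (percentile 9.22). PABPC4 and LARP1 were thus the lowest of the set in null cells, and PABPC1 no longer was. The ratio was also taken with footprints per kb of coding sequence and mRNA per kb of deposited width, for the 9220 genes (91.2%) with a coding length. Whether the Ribo-Seq counts cover the coding sequence only is not given in the sources used here, and the percentiles between genes depend on it. In WT cells PABPC1 then stood at 0.371 (percentile 1.74) and LARP1 at 0.514 (percentile 4.44), whereas PAIP2B, with 369 coding nt in a width of 6300 nt, stood at 14.6 (percentile 99) in place of percentile 53, and PABPN1 at percentile 52 in place of 24.9.

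The genes whose values across the 8 libraries were closest to those of PABPC1, by Euclidean distance of log2 CPM from the WT mean of each assay among 9768 genes with at least 10 counts in every library, were YBX1 at 0.441, ZNF594 at 0.587 and WDR89 at 0.617. YBX1 encodes an abundant RNA-binding protein of cytoplasmic mRNPs. Its mRNA was 1729 and 1732 CPM in WT and 1141 and 1163 CPM in XRN1-null cells, with footprints of 502 and 648 CPM against 891 and 841 CPM. ZNF594, a zinc finger gene, had 11.3 to 12.5 CPM of mRNA in WT and 7.64 to 8.45 CPM in XRN1-null cells, and WDR89 had 28.9 to 31.5 against 21.5 to 23.0 CPM. Footprints of ZNF594 overlapped between the groups, at 5.73 and 12.2 CPM in WT against 10.9 and 11.5 CPM (log2 difference 0.17). Those of WDR89 stood at 19.3 and 29.2 CPM in WT against 30.8 and 34.6 CPM (0.35), with no overlap. The likeness is a description over 8 libraries.

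The wider tail and cap machinery was covered by 8 lists, 82 genes of which were in the table. Among these 82 genes mRNA rose for 19 and fell for 20, and RPF rose for 1 and fell for 1. These counts are near the shares of all genes (22.9% and 23.2% for mRNA, 0.633% and 1.14% for RPF). No TE difference passed with edgeR, although 15 higher and 9 lower differences had an unadjusted p below 0.05 (8.76% and 14.6% of all genes), and DESeq2 called 1 lower. Among PAM2 partners of cytoplasmic PABP, mRNA rose for 5 of 10, where 22.9% of all genes rose, among them ATXN2 (1.06), NFX1 (0.70) and TNRC6B (0.66), which encodes a GW182 protein of the miRNA pathway, and fell for 2. The list's median was 0.39, against −0.01 for all genes.

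Among the initiation factors that join cap and tail, and their inhibitors, mRNA rose for 2 of 11 and fell for 3, against 22.9% and 23.2% of all genes. EIF4G3, a scaffold that binds PABP, rose by 0.84, whereas the cap-binding protein EIF4E fell by 0.62 and its inhibitor EIF4EBP1 fell by 0.69. Footprints of EIF4A2, an RNA helicase, rose by 0.83 (edgeR FDR 0.00465), the only footprint rise of the 8 lists that passed 0.005 in the main fit. Of 9 genes of mTORC1 signalling, which acts on LARP1, mRNA rose for 4, among them MTOR (0.65) and RPS6KB1 (0.61), and fell for 3, against the same shares of all genes. MLST8, a core subunit of the complex, fell by 0.67 in mRNA and by 0.97 in RPF (edgeR FDR 0.00353), an RPF call that DESeq2 did not make. In TE, where no gene of these lists passed with edgeR, the median was 0.26 for the cap factors, with 9 of 11 differences above 0, and −0.37 for the mTORC1 genes, with 7 of 9 below 0. Of the mTORC1 genes 4 had an unadjusted p below 0.05 for lower TE (14.6% of all genes), and DESeq2 called 1 of them.

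The list of TOP mRNAs, the class bound by LARP1, holds 15 genes not named RPL or RPS. FAU among them does encode a ribosomal protein, and the product of RACK1 is part of the ribosome. Of the 15, mRNA fell for 8, RACK1 included, and rose for none (23.2% and 22.9% of all genes). EEF1B2 was lower by a log2 difference of −0.54, FAU by −0.53 and NPM1 by −0.51. Only 1 of the 15 had an unadjusted p below 0.05 in the higher direction (34% of all genes), and DESeq2 called 1 higher. The list's median was −0.28 in mRNA. In TE none of the 15 passed with edgeR or DESeq2, but 8 had an unadjusted p below 0.05, all higher (8.76% of all genes), and 14 of 15 differences were above 0 with a median of 0.29, against 0.01 for all genes.

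Among 19 genes of cleavage and polyadenylation, the nuclear steps in which PABPN1 acts, 2 rose and 1 fell in mRNA and 16 did not pass, where 46.1% of all genes passed in either direction. NUDT21, a subunit of cleavage factor I that favours distal sites, fell by 0.96, while PAPOLG, a poly(A) polymerase, rose by 0.49 and CPSF1 by 0.33. Among 13 deadenylase genes mRNA rose for 4, among them CNOT10 (0.66) and CNOT4 (0.59), and fell for 2, among them PARN (−0.50), near the shares of all genes (22.9% and 23.2%). Of 4 other poly(A)-binding proteins in the table, mRNA rose for 2 and fell for none, against 22.9% and 23.2% of all genes. These were ZC3H11A (0.35) and ZC3H14 (0.34), a zinc finger protein. Of 4 other La-related proteins mRNA rose for 1 and fell for 1, against the same shares. LARP1B rose by 0.89 and LARP6, which binds collagen mRNAs, fell by 0.75.

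**Figure D4:**
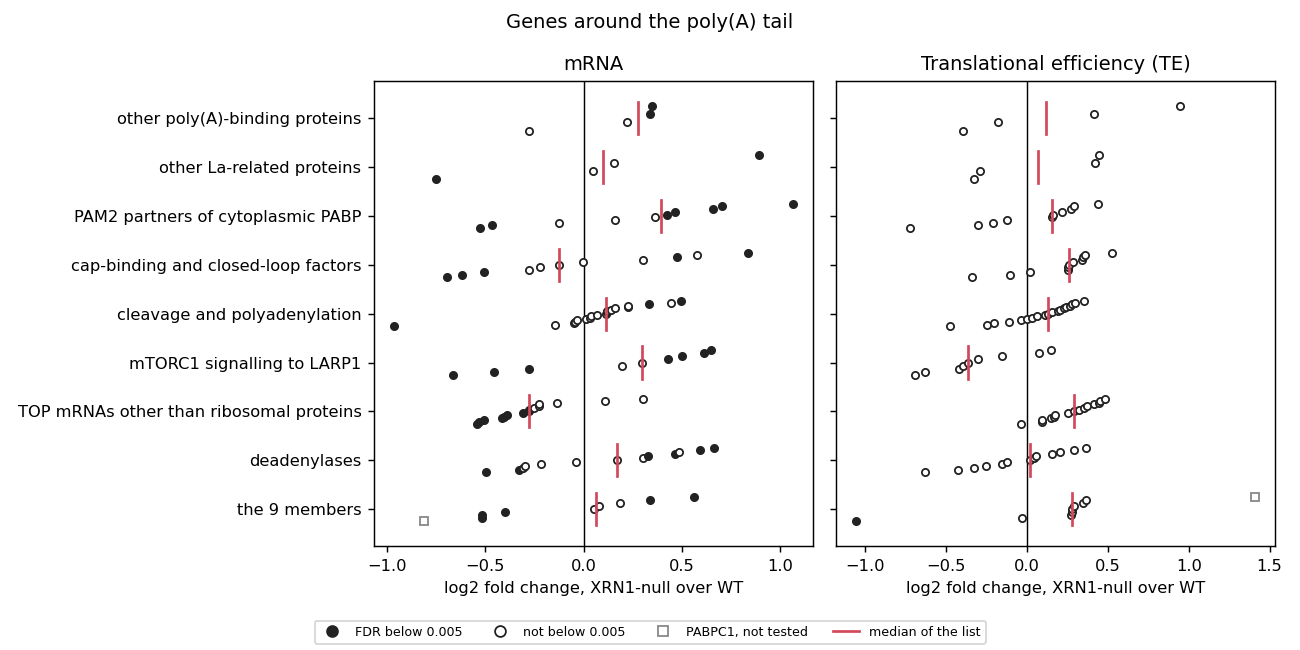
Log2 differences of XRN1-null against WT for mRNA and TE of each gene in the 8 lists and the 9 genes of the set, with 1 point per gene, filled where the edgeR FDR was below 0.005, a grey square for PABPC1, and a red line at each median (for the set, without PABPC1). TOP mRNAs lie mostly below 0 in mRNA (median −0.28) and above 0 in TE (median 0.29).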

How the data were processed

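Whole-number counts per gene were deposited by the authors, with a gene width, for 4 RNA-Seq and 4 Ribo-Seq libraries. The submitters' processing notes name Bowtie2, TopHat2, edgeR and hg19, and the paper's methods add counting with QuasR and a filter on low FPKM. Strand, whether footprints outside the coding sequence were counted, treatment of reads with several positions and the gene annotation of the counting are not given in the sources used here. The other deposited tables hold only the authors' own comparisons (fold changes, p-values, FDR values and TE ratios) and were not used.

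Groups and replicate numbers came from the sample labels. All 10105 genes were tested with edgeR 4.0.16 (R 4.3.3): TMM factors within each assay, quasi-likelihood fits of each assay by genotype, and for TE the interaction of assay and genotype over all 8 libraries. P-values were adjusted by Benjamini-Hochberg over all genes, with calls at an FDR below 0.005. The paper states this cutoff for differential mRNA and gives none for TE, which it took from RiboDiff. Fewer genes were called here than the paper reports for each of mRNA, RPF and TE, so a difference that did not pass here may have passed there. RiboDiff was not run. DESeq2 1.42.0, other scalings, a minimum of 10 counts, an FDR of 0.05, replicate blocks and leaving out each library were alternatives. SE are the log2 difference over the square root of F. The functions were tested on simulated counts.

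The genes and lists were chosen with earlier results of these data known. Named genes were the 9 given, XRN1, the 3 nearest to PABPC1, and up to 3 called genes with the largest change per list and contrast. BCL2L2-PABPN1, which overlaps PABPN1, was added after its values were seen. Positions, coding sequences and genome matches used GENCODE release 44 mapped to GRCh37, with Python 3.11.15, pysam 0.24.0 and Biopython 1.88. Libraries have no described molecular identifiers, so counts include PCR duplicates.

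The same replicate numbers occur in each group, but the labels do not say that they mark shared preparation. Within each assay, the distances of replicates from the mean of their genotype correlated between equal numbers at 0.204 in RNA-Seq and 0.0789 in Ribo-Seq across 9768 genes.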

Additional observations from a re-analysis of the deposited data

How the results depend on the processing

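Each group has 2 libraries, and the genes of the set had 50 to 1910 RPF counts per library, which limits the precision of RPF and TE. At an FDR below 0.05, 3 of the 8 genes passed for higher mRNA and 1 for higher RPF, LARP4B being the gene added each time, and in the 82 genes of the lists 29 passed for higher mRNA, 29 for lower mRNA, 10 for higher RPF, 8 for lower RPF, 2 for higher TE and 4 for lower TE. With library totals 3 of the 82 passed for higher RPF. Shares of all genes were not taken at these settings, so these counts cannot be set beside them and are not read as a result. With 1 library left out, the count of the 8 genes passing was 0 to 3 for higher mRNA, 0 to 3 for lower mRNA, 0 to 3 for higher RPF, 0 to 1 for lower RPF and 0 to 1 for lower TE. Over the same fits the PAIP2B RPF difference ranged from −0.087 to 0.13 and was below 0 without WT Ribo-Seq replicate 2 or XRN1-null Ribo-Seq replicate 1. The PAIP2B TE difference ranged from −0.16 to 0.054 and was above 0 without WT Ribo-Seq replicate 1 or XRN1-null Ribo-Seq replicate 2. The LARP4 TE difference ranged from −0.011 to 0.84, its lowest value being without WT Ribo-Seq replicate 1. Outside these fits no member reversed. Summing PABPN1 with BCL2L2-PABPN1, added after seeing the data, left the PABPN1 results on the same side.

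Samples shared only a number, so the fit with the replicate block is given here alone. With this block LARP4 passed for higher RPF (0.69, SE 0.161, FDR 0.000304), the 1 call it added among the 8 genes. In the lists 10 genes passed for higher RPF and 6 for lower RPF, but the shares of all genes were not taken with this block. The cause was not tested for any of these changes.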

Other observations

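Among relatives outside the named set, PABPC4L, a PABP paralog chosen here after its values were seen, had footprints of 9.38 and 13.8 CPM in WT and 29.8 and 25.3 CPM in XRN1-null cells. Its mRNA was 22.0 and 21.3 CPM against 25.3 and 25.02 CPM. Neither RPF (1.17, SE 0.218, edgeR FDR 0.00647) nor TE (0.95, SE 0.215, FDR 0.0195) passed 0.005, and PABPC4L had only 18 to 120 RPF counts per library.

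LARP6, a called gene of the La-related list in mRNA, had footprints of 14.1 and 10.6 CPM in WT and 5.46 and 5.62 CPM in XRN1-null cells, a difference of −1.08 (SE 0.29, edgeR FDR 0.0282) on 18 to 46 counts per library. LARP7, which binds 7SK RNA, and SSB, the La protein, were not called in mRNA or RPF. LARP7 had an RPF difference of 0.61 (SE 0.153, FDR 0.0219) and SSB of 0.48 (SE 0.173, FDR 0.0812). These genes were chosen after their values were seen.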
